A study of Mus musculus with 4 samples.

Results

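A set of 10 genes that mark Sertoli cells or carry their hormone signals were followed in RNA of sorted leptotene/zygotene (L/Z) spermatocytes, germ cells in early meiotic prophase, as a readout of somatic RNA in a germ cell sort. The genes (Cst9, Cst12, Amh, Sox9, Wt1, Fshr, Clu, Dhh, Rhox5 and Rhox8) were chosen by name and looked up by symbol, and all 10 were present among the 23980 genes of the expression table. Polyadenylated RNA was sequenced from the sorted cells of F1 hybrids between C57BL/6J and MSM/Ms mice at 3 to 4 weeks of age. There were 4 libraries, 1 for each genotype: a Dnmt3L heterozygote (Dnmt3L Het), a Dnmt3L knockout (Dnmt3L KO), a Pld6 knockout (Pld6 KO) and a Pld6 wild type (Pld6 WT). The study asked how loss of the piRNA factor PLD6 or of the DNA methylation cofactor DNMT3L acts on retrotransposons and on nearby genes. The Dnmt3L control carried 1 mutant allele and the Pld6 control none, so the control libraries differed in genotype and in line. Germ cells of both knockouts die by the end of zygotene, while control testes of this age also hold later stages. Whether a library came from 1 animal or several was not stated, and no value below has a replicate.

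Sertoli cells are the somatic cells of the seminiferous tubule, and germ cells develop embedded between them. They are specified in the fetal gonad by SRY and SOX9, and later take up follicle-stimulating hormone and testosterone signals on behalf of germ cells, which lack those receptors. Meiotic germ cells stay in close contact with Sertoli cells until they are dissociated for sorting.

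The libraries held 30439943 to 63875934 fragments in genes. Dnmt3l was at 1.27 FPKM (fragments scaled to gene length and library depth) in Dnmt3L Het, 0 in Dnmt3L KO, 0.432 in Pld6 KO and 0.980 in Pld6 WT, and was thus listed at 0 where its loss was labelled. For Pld6 the levels were 17.2, 8.55, 0.334 and 19.5 FPKM in the same order, lowest in Pld6 KO. The 15 markers of L/Z spermatocytes (among them Sycp3, Sycp1 and Spo11) were present in all 4 libraries, with medians of 132 FPKM in Dnmt3L Het, 67.9 in Dnmt3L KO, 114 in Pld6 KO and 230 in Pld6 WT.

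The Sertoli genes were abundant in both Dnmt3L libraries and scarce in both Pld6 libraries. Together the 10 genes held 393217 fragments in Dnmt3L Het and 403686 in Dnmt3L KO, or 0.616% and 0.808% of all fragments in genes. In Pld6 KO they held 15539 fragments (0.0510%) and in Pld6 WT 8191 (0.0202%). Their geometric mean was 139 FPKM in Dnmt3L Het, 199 in Dnmt3L KO, 11.4 in Pld6 KO and 4.93 in Pld6 WT. Set against the summed FPKM of the L/Z markers, the summed Sertoli genes came to 2.65 times that sum in Dnmt3L Het, 6.60 times in Dnmt3L KO, 0.211 times in Pld6 KO and 0.0499 times in Pld6 WT. In bulk RNA such as this, fewer Sertoli cells in the sort and less Sertoli RNA per cell cannot be told apart. For 9 of the 10 genes the libraries had the same order of levels, from Dnmt3L KO over Dnmt3L Het and Pld6 KO down to Pld6 WT, and Amh was the exception, with its lowest value in Pld6 KO.

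**Figure D1:**
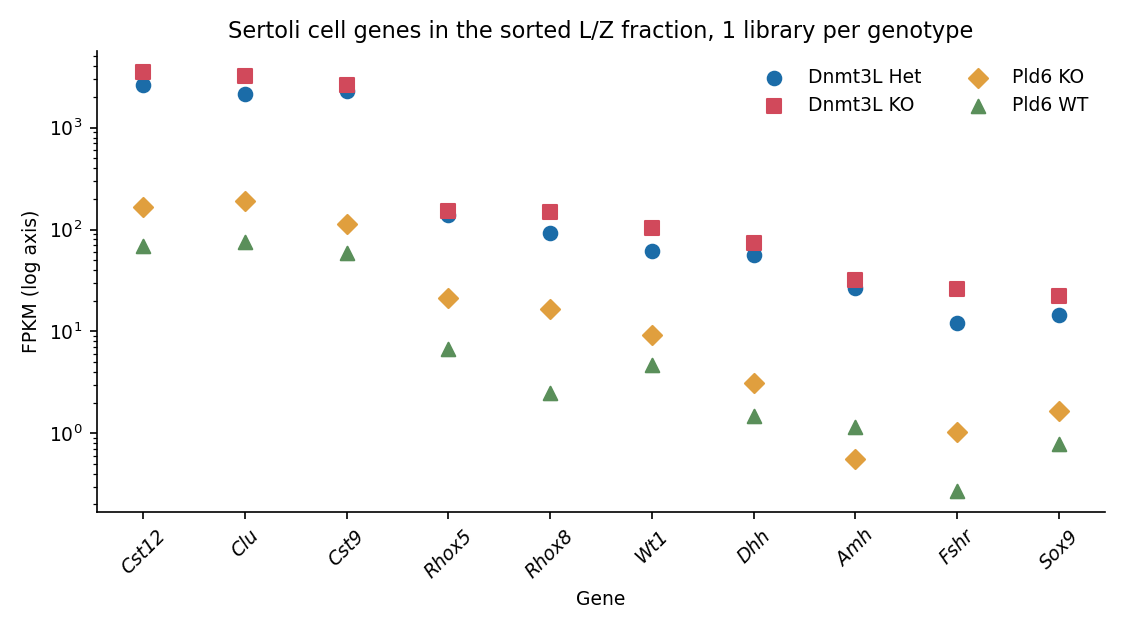
FPKM (log axis) of the 10 Sertoli cell genes in the 4 libraries, 1 point per library, with genes ordered by their level. Both Dnmt3L libraries lie above both Pld6 libraries for every gene, and Amh is the gene whose Pld6 KO point (0.560) lies below its Pld6 WT point (1.14).

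The secreted proteins made up nearly all of the Sertoli signal. Cst12, Cst9 and Clu contributed 94.6% of the summed FPKM of the 10 genes in Dnmt3L Het, 94.4% in Dnmt3L KO, 89.8% in Pld6 KO and 92.1% in Pld6 WT. Cst12 and Cst9 encode cystatin-related proteins (cysteine protease inhibitor family, Cst9 also being known as testatin) of Sertoli cells. Cst12 (chr2:148789365-148793432, mm10) was at 2624 FPKM in Dnmt3L Het, 3542 in Dnmt3L KO, 167 in Pld6 KO and 68.7 in Pld6 WT. It ranked 15 and 4 among all genes by FPKM in the Dnmt3L libraries, against 441 and 1579 in Pld6 KO and Pld6 WT. Cst9 (chr2:148835147-148838737) was at 2282, 2615, 114 and 59.4 FPKM in the same order of libraries. Its rank went from 25 and 11 in Dnmt3L Het and Dnmt3L KO to 722 and 1838 in Pld6 KO and Pld6 WT, the same split between lines. Clu (chr14:65968483-65981548) encodes clusterin, a chaperone that Sertoli cells secrete and many other cells also make. It was at 2151 FPKM in Dnmt3L Het, 3202 in Dnmt3L KO, 189.9 in Pld6 KO and 74.9 in Pld6 WT, on 4902 fragments in the lowest library.

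The proximal promoters of the tandem cystatin genes are shown because these genes carried most of the signal while the genes between them had another order of levels. Sequences run from 250 bases before to 50 bases after the annotated start in RefSeq (GRCm38.p6), which was found for 5 of the 10 genes, and capitals mark a match to 1 of 7 searched motifs on either strand. Cst12 lies at chr2:148789115-148789414 (plus strand) and Cst9 at chr2:148834897-148835196 (plus strand).
Cst12: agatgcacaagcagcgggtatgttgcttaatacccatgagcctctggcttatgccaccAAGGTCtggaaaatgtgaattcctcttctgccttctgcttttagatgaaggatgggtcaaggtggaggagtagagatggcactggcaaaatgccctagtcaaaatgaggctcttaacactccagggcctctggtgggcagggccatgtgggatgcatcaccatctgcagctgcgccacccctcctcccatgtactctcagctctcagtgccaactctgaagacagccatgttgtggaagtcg
Cst9: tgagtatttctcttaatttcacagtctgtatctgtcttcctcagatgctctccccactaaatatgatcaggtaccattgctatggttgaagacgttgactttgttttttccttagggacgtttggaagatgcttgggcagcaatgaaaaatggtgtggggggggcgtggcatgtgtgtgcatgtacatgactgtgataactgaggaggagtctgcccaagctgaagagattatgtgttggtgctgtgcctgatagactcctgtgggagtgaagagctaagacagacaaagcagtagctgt
Each window held 3 CpG dinucleotides, against a median of 7 over 32851 promoters of the same length, of which 43.6% held 5 or fewer. The motif AAGGTC, the half-site letters bound by NR5A1, occurred 192 bases before the Cst12 start and is found in 12.3% of all promoters. No searched motif was found in the Cst9 window.

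The transcription factors of Sertoli identity were present at lower levels with the same split. Wt1 (chr2:105126529-105173614), a zinc finger factor that maintains Sertoli cells, was at 61.6 FPKM in Dnmt3L Het, 103.7 in Dnmt3L KO, 9.17 in Pld6 KO and 4.63 in Pld6 WT. Sox9 (chr11:112782210-112787757), the factor that acts downstream of SRY, was at 14.6, 22.2, 1.67 and 0.778 FPKM in that order. Sox9 in the Pld6 WT library rested on 125 fragments and Wt1 on 545, so both were detected there above the counting floor of 3 fragments. The lncRNA gene Wt1os lies 19 bp from Wt1 on the opposite strand and stayed between 0.120 and 1.28 FPKM, far below Wt1 in each library.

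Hormone genes included both a receptor and a hormone. Fshr (chr17:88984952-89200675), the receptor for follicle-stimulating hormone, found in the testis on Sertoli cells, was at 12.1 FPKM in Dnmt3L Het, 26.1 in Dnmt3L KO, 1.04 in Pld6 KO and 0.273 in Pld6 WT. The last value stood on 24 fragments, the fewest of any of the 10 genes in any library. Amh (chr10:80805240-80807679), anti-Müllerian hormone, is made at a high rate by immature Sertoli cells and declines at puberty. Its level was 26.7 FPKM in Dnmt3L Het, 31.9 in Dnmt3L KO, 0.560 in Pld6 KO (26 fragments) and 1.14 in Pld6 WT (68 fragments). The splicing factor gene Sf3a2 ends 318 bp before Amh on the same strand and was at 24.0, 26.1, 50.9 and 38.6 FPKM, a profile that did not resemble that of Amh, and the share of Amh fragments that could be read-through from Sf3a2 was not tested. Dhh (chr15:98881615-98898562), the hedgehog ligand that Sertoli cells send to Leydig and peritubular cells, was at 55.8 FPKM in Dnmt3L Het, 73.6 in Dnmt3L KO, 3.10 in Pld6 KO and 1.47 in Pld6 WT. Its neighbour Rhebl1, 118 bp away on the same strand, lay between 5.76 and 8.62 FPKM in all 4 libraries.

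The promoter of Fshr is shown for its E-box CACGTG, the letters bound by USF factors in Sertoli cells, 61 bases before the listed start. These letters occur in 7.15% of all promoters. The window lies at chr17:89200626-89200925 (minus strand).
Fshr: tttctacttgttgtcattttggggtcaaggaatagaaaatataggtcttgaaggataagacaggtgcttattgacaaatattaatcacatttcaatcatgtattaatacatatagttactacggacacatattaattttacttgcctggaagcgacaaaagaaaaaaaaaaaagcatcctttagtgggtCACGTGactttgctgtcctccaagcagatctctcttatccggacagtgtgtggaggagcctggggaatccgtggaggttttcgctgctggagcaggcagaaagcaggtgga
It held 6 CpG dinucleotides with 40.7% G and C. The Dhh promoter was richer, with 12 CpG dinucleotides and 61.7% G and C, and held none of the searched motifs.

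Rhox5 and Rhox8 are homeobox genes of the reproductive cluster on the X chromosome and are expressed in Sertoli cells under androgen control. Rhox5 (chrX:37754608-37808878) was at 139 FPKM in Dnmt3L Het, 153 in Dnmt3L KO, 21.5 in Pld6 KO and 6.74 in Pld6 WT. Rhox8 (chrX:37874780-37890766) was at 91.5, 148, 16.7 and 2.47 FPKM in that order. Rhox8 overlaps the annotated pseudogene Rhox7b on its own strand, so its fragments in the overlap are uncertain. Rhox5 has a distal and a proximal promoter, and which of them lies at the listed gene start was not determined. The window at that start (chrX:37754358-37754657, plus strand) is shown because Rhox5 was among the 3 genes with the largest ratio of Pld6 KO to Pld6 WT.
Rhox5: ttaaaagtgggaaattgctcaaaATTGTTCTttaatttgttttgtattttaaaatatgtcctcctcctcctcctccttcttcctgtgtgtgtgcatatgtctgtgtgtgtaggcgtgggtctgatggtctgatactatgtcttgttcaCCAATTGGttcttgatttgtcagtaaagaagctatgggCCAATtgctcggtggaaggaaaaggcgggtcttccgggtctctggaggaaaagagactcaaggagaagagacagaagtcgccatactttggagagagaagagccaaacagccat
Here the first capitals hold, on the reverse strand, AGAACA (half-site letters of the androgen receptor, in 19.0% of promoters) and the SOX letters AACAAT (in 10.7%), which overlap, and the others are matches to CCAAT (in 37.4%). The other searched letters, AGATAA of the GATA factors (in 11.2% of promoters) and the TATA box TATAAA (in 13.6%), were in 0 of the 5 windows.

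For these genes the control libraries differed from each other more than either knockout differed from its own control. In Dnmt3L Het against Pld6 WT, 10 of 10 Sertoli genes were more than 2-fold higher on the log2(FPKM + 1) scale, with a median difference of 4.35 (range 3.13 to 5.24). Of 20595 genes above 0 in any library, 12.9% were called higher by this rule and 4.39% lower. Among the 8464 genes at least as abundant as the lowest Sertoli gene (mean of 9.80 FPKM), 16.0% were higher. As plain FPKM ratios the Sertoli genes were 13.3-fold (Wt1) to 44.2-fold (Fshr) higher, with a median of 32.9-fold. The exact 95% interval that the fragment counts allow was 12.2 to 14.5 for Wt1 and 29.6 to 69.2 for Fshr. These intervals cover counting error only, since reads carried no molecular identifiers, and say nothing of variation between animals or sorts. Germ cell markers differed between the control libraries too. Of the spermatid genes 7 of 9 were more than 2-fold higher in Dnmt3L Het, Prm1 by 146-fold (2372 against 16.3 FPKM), and 6 of 15 L/Z markers were more than 2-fold lower. The part of these differences in the Sertoli values was not tested.

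The knockouts were set against each other with the same outcome. In Dnmt3L KO against Pld6 KO, 10 of 10 genes were more than 2-fold higher, with a median difference of 3.90 (2.78 to 4.50), while 11% of all genes were higher and 4.99% lower. Ratios ran from 7.15-fold for Rhox5 (interval 6.45 to 7.93) to 56.9-fold for Amh (38.7 to 87.3), with a median of 19.1-fold. The line of the mice, the sort and the genotype cannot be told apart in these comparisons.

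Within the Dnmt3L line, the knockout library held somewhat more Sertoli RNA than the heterozygote. All 10 genes were higher in Dnmt3L KO, with a median difference of 0.50 (0.15 to 1.05), and 1 of 10, Fshr, was more than 2-fold higher. Over all genes 3.49% were higher and 9.57% lower by this rule. Fshr was 2.17-fold higher (interval 2.04 to 2.30), and the next genes were Wt1 at 1.68-fold (1.64 to 1.73) and Rhox8 at 1.62-fold (1.57 to 1.68). The smallest ratios were those of Rhox5 at 1.11-fold (1.06 to 1.15), Cst9 at 1.15-fold (1.13 to 1.16) and Amh at 1.19-fold (1.13 to 1.26). Every counting interval lay above 1 at the authors' FPKM scaling. With counts scaled to depth alone, the log2 difference was 0.049 for Rhox5 and 0.098 for Cst9. The intervals do not cover the choice of scaling or variation between animals, and are too narrow if fragments are not single reads. The L/Z markers were lower instead, with a median difference of -0.79, and 4 of 15 were more than 2-fold lower. Spermatid genes such as Prm1 (2372 FPKM in Dnmt3L Het, 1.81 in Dnmt3L KO) were also lower in the knockout, in 8 of 9 cases by more than 2-fold. The part of these germ cell differences in the Sertoli values was not tested. When each library was scaled to its L/Z markers, a scaling that moved the median of all genes by 0.49, 10 of 10 Sertoli genes were more than 2-fold higher in Dnmt3L KO, as were 29.5% of all 23980 genes (3.00% without it).

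In the Pld6 line the Sertoli genes spread further apart. Of the 10 genes, 4 (Cst12, Clu, Rhox5 and Rhox8) were more than 2-fold higher in Pld6 KO than in Pld6 WT and 0 more than 2-fold lower, with a median difference of 0.89 (-0.46 to 2.35). Over all genes 5.46% were higher and 7.52% lower. Rhox8 stood 6.74-fold higher (interval 5.44 to 8.42), Fshr 3.80-fold (2.36 to 6.31, on few fragments) and Rhox5 3.19-fold (2.65 to 3.84). Clu was 2.53-fold higher (2.45 to 2.62) and Cst12 2.42-fold (2.24 to 2.62), ratios that rest on many fragments. Sox9 at 2.15-fold, Dhh at 2.10-fold, Wt1 at 1.98-fold and Cst9 at 1.93-fold lay close together. Sox9, Dhh and Fshr exceeded 2-fold as plain ratios but not on the log2(FPKM + 1) scale, which understates genes with low values. Amh was the only gene that was lower, at 0.491 of its Pld6 WT level (0.300 to 0.782), and its interval did not overlap that of any other Sertoli gene. When each library was scaled to its L/Z markers, the log2 difference of Amh was -0.0057, near 0.

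**Figure D2:**
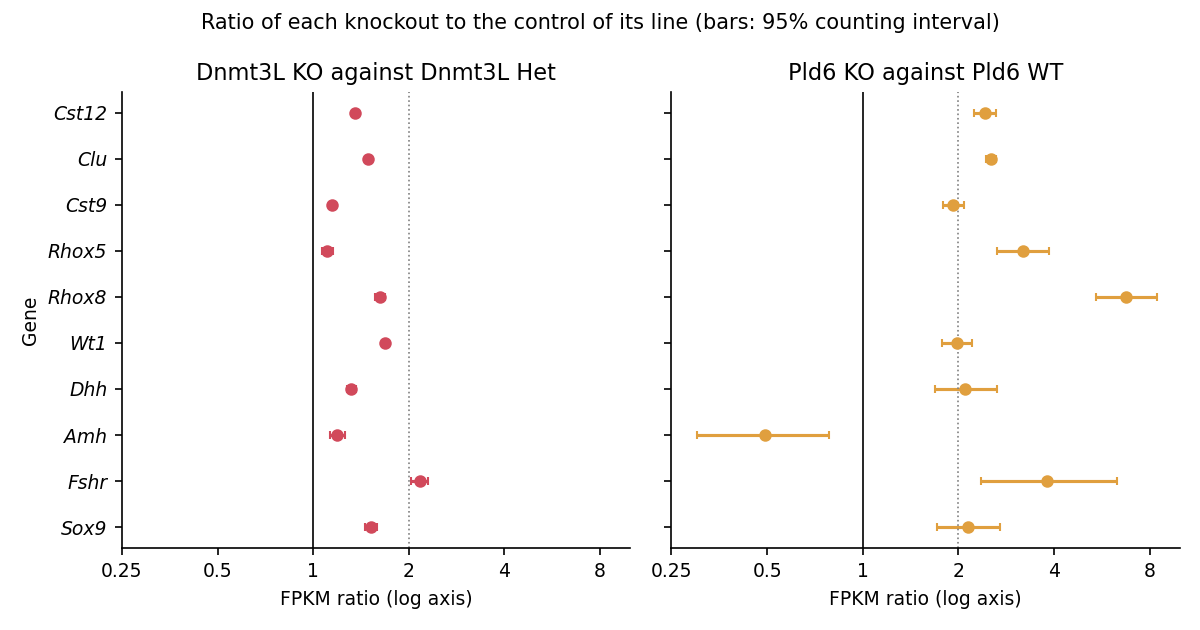
Ratio of FPKM in each knockout to the control of its own line (log axis), 1 point per gene, with bars for the exact 95% counting interval of the fragments, a solid line at 1 and a dotted line at 2-fold. Dnmt3L KO ratios lie between 1.11 and 2.17, while Pld6 KO ratios run from 0.491 for Amh to 6.74 for Rhox8.

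Models across libraries had few residual degrees of freedom. Taking both control libraries as 1 group left 1. The study describes such pooling of unlike control genotypes for its bisulfite sequencing and does not state it for these libraries. In the edgeR quasi-likelihood fit of these groups, log2 differences ran from 1.08 (Rhox5) to 2.08 (Fshr) in Dnmt3L KO. In Pld6 KO they ran from -4.67 (Amh) to -1.5 (Rhox8). Adjusted p ran from 0.879 to 0.955 in Dnmt3L KO and from 0.671 (Amh) to 1 in Pld6 KO, and 0 of the 10 genes had an unadjusted p under 0.05 (1643 and 1485 of all genes did). In DESeq2 on the same groups, the largest log2 difference of the 10 genes was 2.08 (Fshr) in Dnmt3L KO and -4.65 (Amh) in Pld6 KO. The controls that this fit takes as replicates were 23.4-fold apart for Amh. The Amh level in Pld6 KO lay below both of them, whereas the other 9 genes in Pld6 KO lay between the controls.

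Both knockouts can also be set against both controls with the line of the mice as a term, a fit that was chosen after the values were seen and that assumes the same difference in both lines. In edgeR it left 1 residual degree of freedom, and 9 of the 10 genes were higher in the knockouts, Amh being the exception (log2 difference -0.33). None passed an adjusted p of 0.05 (0 of 10, adjusted p from 0.0647 for Fshr to 0.739 for Amh), while 6.72% of 17686 genes did. At an unadjusted p under 0.05 there were 7 of 10 (Cst12, Sox9, Wt1, Fshr, Clu, Dhh and Rhox8), beside 3428 of all genes. Fshr differed by 1.44 and Rhox8 by 1.64 (adjusted p 0.1). Without the line term, 0 of 10 genes had an unadjusted p under 0.05.

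Dividing each gene by the geometric mean of the other 9 removes the overall amount of Sertoli RNA and shows whether its composition differed. Clu was the steadiest gene, at 21.0 times the others in Dnmt3L Het, 22.0 in Dnmt3L KO, 22.9 in Pld6 KO and 20.6 in Pld6 WT. Its highest and lowest proportions differed 1.11-fold although its level differed over a far wider range. Cst12 (1.40-fold), Dhh (1.54-fold), Sox9 (1.57-fold) and Cst9 (1.72-fold) followed. Amh varied most, 5.58-fold, with proportions of 0.160 in Dnmt3L Het, 0.131 in Dnmt3L KO, 0.0353 in Pld6 KO and 0.197 in Pld6 WT. The Pld6 KO library stood alone, and the other 3 libraries lay between 0.131 and 0.197. Rhox8 came next with 3.29-fold, at 0.630, 0.723, 1.53 and 0.464 in the same order, and here Pld6 KO was the highest. Rhox5 (2.70-fold) was at 0.998, 0.751, 2.03 and 1.42 and Wt1 (2.30-fold) at 0.406, 0.486, 0.788 and 0.933, both higher in the Pld6 libraries. Fshr varied 2.62-fold, with its highest proportion in Dnmt3L KO (0.105) and its lowest in Pld6 WT (0.0402).

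Ratios of gene pairs give the same picture without a common divisor. Amh was 1.83 times Sox9, its direct activator in the fetal testis, in Dnmt3L Het, 1.44 times in Dnmt3L KO and 1.47 times in Pld6 WT, but 0.335 times in Pld6 KO. The Fshr to Amh ratio was 0.451 in Dnmt3L Het, 0.820 in Dnmt3L KO, 1.85 in Pld6 KO and 0.239 in Pld6 WT, higher in the knockout than in the control of both lines. The Rhox8 to Rhox5 ratio was 0.661, 0.967, 0.775 and 0.367 in the same order, also higher in both knockouts. The Cst12 to Cst9 ratio stayed between 1.15 and 1.46.

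**Figure D3:**
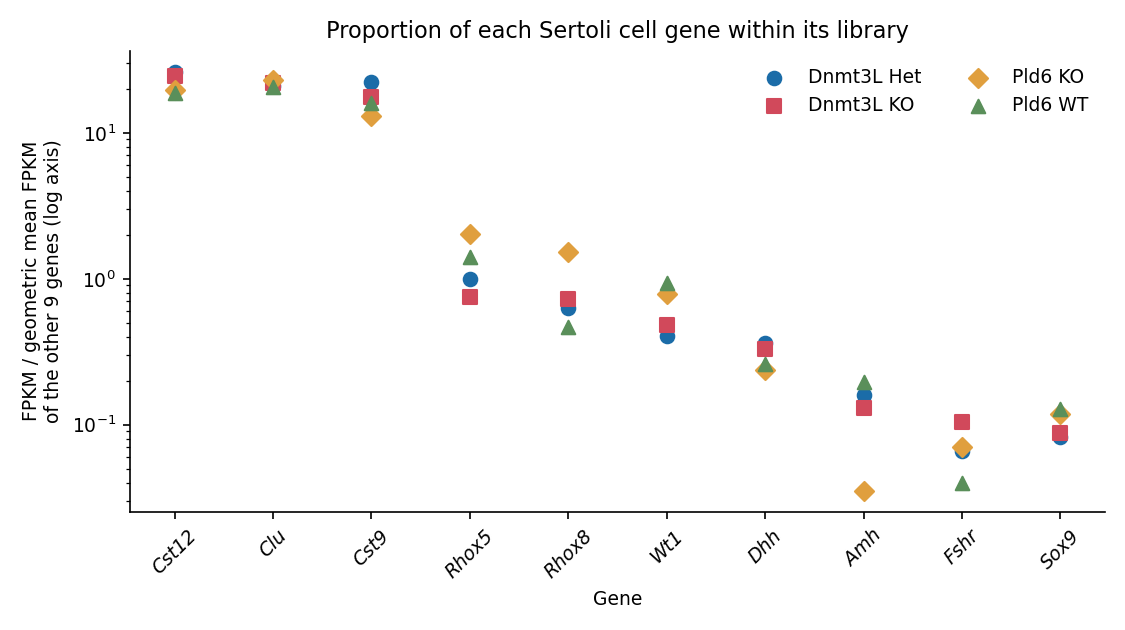
FPKM of each Sertoli cell gene divided by the geometric mean of the other 9 in the same library (log axis), 1 point per library. Clu points coincide (20.6 to 22.9), and Amh in Pld6 KO (0.0353) lies apart from its other 3 points (0.131 to 0.197).

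Most other Sertoli genes followed the 10. Of 23 further Sertoli genes, 21 were more than 2-fold higher in Dnmt3L Het than in Pld6 WT (12.9% of all genes were). In Dnmt3L KO against Dnmt3L Het 2 were higher (3.49% of all genes), and in Pld6 KO against Pld6 WT 15 (5.46%). In Dnmt3L KO against Pld6 KO 20 were higher (11%), with 0 of the 23 lower in any of the 4. Their median FPKM was 64.2 in Dnmt3L Het, 106 in Dnmt3L KO, 9.62 in Pld6 KO and 2.81 in Pld6 WT. The most abundant was Defb19, a beta-defensin, at 2824, 3280, 204 and 64.5 FPKM, close to the level of Cst12 in each library. Ctsl, a lysosomal protease, was at 1150, 1355, 163 and 93.2 FPKM in that order. Aard (708, 890, 72.5 and 22.3 FPKM) and the defensin gene Defb36 (732, 815, 58.8 and 18.1 FPKM) were alike in profile. Trf was not, at 14.9, 28.1, 16.3 and 5.29 FPKM, with Pld6 KO above Dnmt3L Het. Erbb4 (at most 1.49 FPKM) and Krt18 (at most 0.895 FPKM) also had Pld6 KO above Dnmt3L Het. Several genes of this list, such as Vim, Gata4, Inha and Nr5a1, are also expressed by other somatic cells of the testis. With the 10 genes included, 32 of 33 Sertoli genes were above their control in Pld6 KO, Amh being the exception, and 33 of 33 in Dnmt3L KO. The exception in Dnmt3L KO against Pld6 KO was Krt18, which was below 1 FPKM in every library.

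Partners in the hormone pathways had unlike profiles. Of 7 genes of AMH reception, Amhr2, the AMH receptor that Sertoli and Leydig cells carry, was at 500 FPKM in Dnmt3L Het, 540 in Dnmt3L KO, 26.6 in Pld6 KO and 15.5 in Pld6 WT. It thus had the order of the 9 Sertoli genes, higher in Pld6 KO than in Pld6 WT where the hormone itself was lower. The type I receptor Bmpr1a and the transducers Smad4 and Smad5 were between 9.81 and 28.8 FPKM everywhere. The type I receptor Acvr1 was at 3.77, 7.70, 5.30 and 1.67 FPKM. It was the 1 gene of the list more than 2-fold higher in Pld6 KO than in Pld6 WT, beside 5.46% of all genes. Among 7 inhibin and activin genes, the inhibin subunits Inha (507, 662, 44.2 and 13.9 FPKM) and Inhbb (35.9, 47.6, 4.26 and 1.51 FPKM) had the Sertoli profile. The activin receptor Acvr2b was higher in the Pld6 libraries instead, at 6.29, 8.13, 23.6 and 14.0 FPKM, and Acvr2a lay between 6.53 and 11.9 FPKM.

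Downstream of FSHR, the stimulatory G protein gene Gnas was at 394 FPKM in Dnmt3L Het, 524 in Dnmt3L KO, 139 in Pld6 KO and 52.5 in Pld6 WT. The kinase subunit Prkar1a lay between 87.2 and 122 FPKM, and Prkaca was at 66.6, 89.4, 44.5 and 49.3 FPKM, higher in the Dnmt3L libraries. Crem, a cAMP-responsive factor of later germ cells as well, was lower in both knockouts, at 28.0 and 23.7 FPKM in the controls against 6.71 in Dnmt3L KO and 7.21 in Pld6 KO. Akap13 was lower only in Dnmt3L Het, at 6.91 FPKM against 19.4 to 19.9 in the other 3 libraries. Of 7 genes in this list, 2 (Gnas and Pde4d) were more than 2-fold higher in Dnmt3L Het against Pld6 WT and 1 (Akap13) lower. In Dnmt3L KO against its control, 2 others as a pair (Pde4d and Akap13) were higher and 1 (Crem) lower. In Pld6 KO against its control, 1 (Gnas) was higher and 1 (Crem) lower. Over all genes, the shares higher and lower in these comparisons were 12.9% and 4.39%, 3.49% and 9.57%, and 5.46% and 7.52%.

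The targets of DHH lie in Leydig and peritubular cells. Of 13 hedgehog pathway genes, 3 (Gli1, Boc and Gas1) were more than 2-fold higher in Dnmt3L Het than in Pld6 WT and 1, Gli3, was lower, where Dhh itself was 37.8-fold higher. Over all genes, 12.9% were higher and 4.39% lower in this comparison, so these counts are small beside the background. Ptch1, the receptor and a target of the pathway, was at 8.57 FPKM in Dnmt3L Het, 16.4 in Dnmt3L KO, 11.4 in Pld6 KO and 4.60 in Pld6 WT. The target factor Gli1 was at 4.37, 4.02, 3.30 and 0.922 FPKM in that order. It was lowest in Pld6 WT like Dhh, but lay within 3.30 to 4.37 FPKM in the 3 other libraries, between which Dhh ranged from 3.10 to 73.6 FPKM. Smo (6.40 to 10.1 FPKM) and Sufu (5.29 to 9.64 FPKM) lay within a narrow range.

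Of 13 genes of testis determination, 4 (Sox8, Gata4, Nr5a1 and Nr0b1) were more than 2-fold higher in Dnmt3L Het than in Pld6 WT and 2 lower. Over all genes, 12.9% were higher and 4.39% lower in this comparison. Nr0b1, an orphan nuclear receptor, was at 78.3 FPKM in Dnmt3L Het, 78.5 in Dnmt3L KO, 4.99 in Pld6 KO and 2.68 in Pld6 WT, and Nr5a1 at 47.0, 65.3, 7.90 and 1.94 FPKM. Dmrt1, which germ cells express too, went the other way, at 100, 107, 131 and 158 FPKM. Cbx2 (11.6, 12.1, 28.5 and 28.3 FPKM) and Sox10 (at most 3.27 FPKM) were more than 2-fold lower in Dnmt3L Het than in Pld6 WT. Sry, the fetal switch gene, was at most 0.274 FPKM. Of 6 genes of granulosa cells, the ovarian counterpart of Sertoli cells, 0 passed 2-fold in any comparison. Foxl2, their defining factor, was at most 0.0930 FPKM.

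The positions of the cystatin and Rhox members allow a look at their neighbours. Cst12 and Cst9 lie 41.7 kb apart with 2 genes between them, Cst8 and Cst13, and these had another order of levels, with Dnmt3L Het highest. Cst8, known from spermatids and epididymis, was at 85.1 FPKM in Dnmt3L Het, 15.0 in Dnmt3L KO, 3.53 in Pld6 KO and 5.98 in Pld6 WT. Cst13 was at 27.6, 0.750, 0 and 0.873 FPKM, and Cstl1, on the far side of Cst12, at 20.4, 0, 0.619 and 0.181 FPKM, so that these too were highest in Dnmt3L Het. Cst3, the widely expressed cystatin C, was at 685, 603, 358 and 303 FPKM, a narrow range beside those of Cst12 and Cst9.

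On the X chromosome, Rhox5 ends 65.9 kb before Rhox8, and of 31 Rhox genes in the table no other with a mean of at least 1 FPKM had their order of levels. Rhox6, between them, was at most 2.58 FPKM. Rhox13 and Rhox10, known from germ cells, were at 75.8, 48.6, 59.3 and 81.5 FPKM and at 7.70, 7.49, 9.05 and 14.3 FPKM, and Rhox11 was at most 3.67 FPKM. Rhox1 lay between 8.54 and 13.0 FPKM. Rhox7 was at 14.6 FPKM in Dnmt3L Het, 13.7 in Dnmt3L KO, 24.7 in Pld6 KO and 17.5 in Pld6 WT, higher in the Pld6 libraries. The Rhox2 and Rhox3 genes are near-identical copies between which fragments may be divided, and their values (at most 14.7 FPKM) are uncertain. Some of them were also higher in both Dnmt3L libraries, such as Rhox2a (11.5, 11.3, 4.07 and 4.19 FPKM) and Rhox2d (7.53, 6.51, 0.106 and 1.16 FPKM), but were not higher in Dnmt3L KO than in Dnmt3L Het. Of the 31 genes, 9 were below 1 FPKM in every library. The 575 X-linked genes with a mean of at least 1 FPKM had median log2 differences of 0.22 in Dnmt3L Het against Pld6 WT, 0.21 in Dnmt3L KO against Dnmt3L Het, 0.09 in Pld6 KO against Pld6 WT and 0.29 in Dnmt3L KO against Pld6 KO. The medians of 12856 autosomal genes were 0.05, 0.06, 0.01 and 0 in that order. Rhox8 and Rhox5 differed by 4.74 and 4.17 in the first of these comparisons and by 3.08 and 2.78 in the last, and Rhox5, by 0.15, no more than the X-linked median in Dnmt3L KO against Dnmt3L Het.

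**Figure D4:**
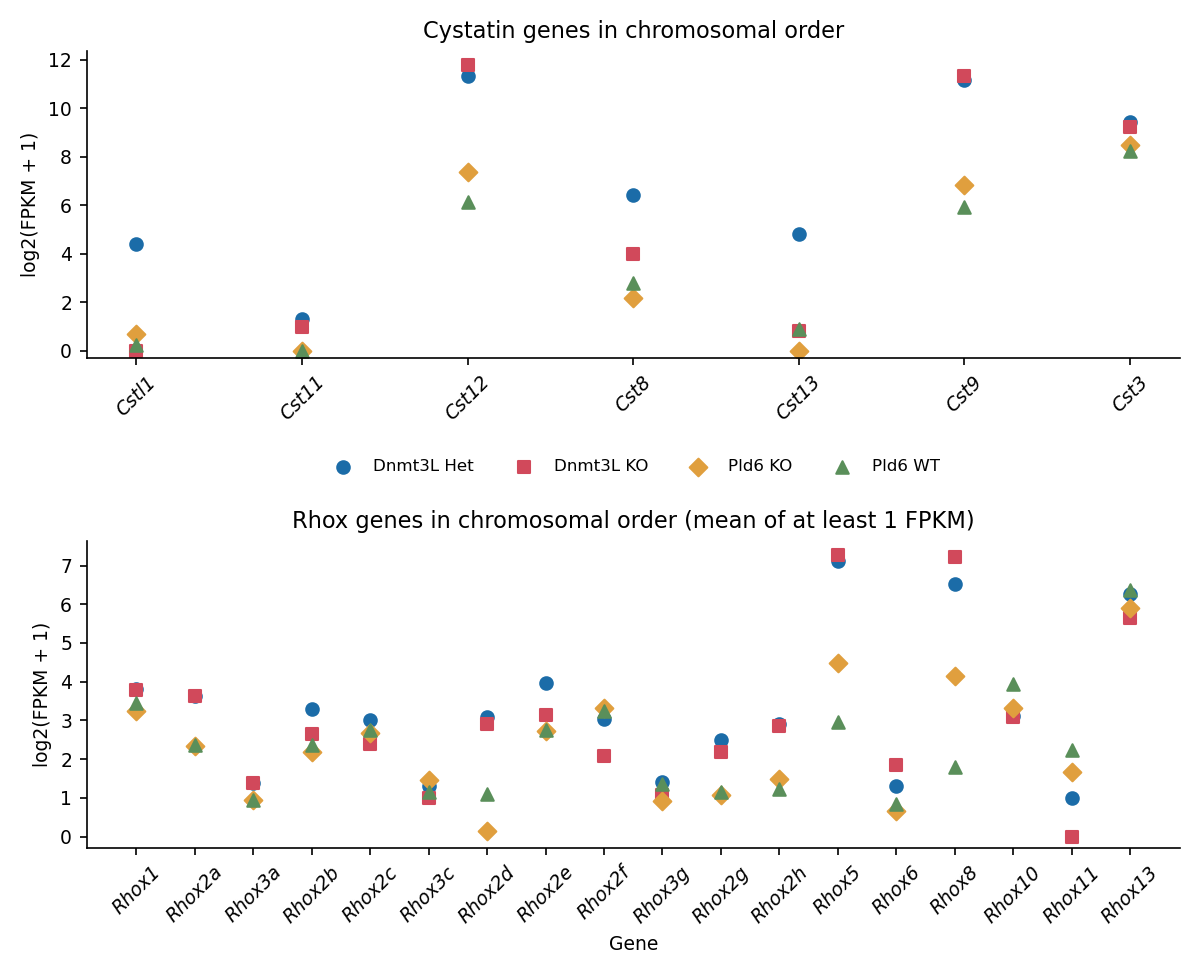
Levels as log2(FPKM + 1) of cystatin genes (upper panel) and of Rhox genes with a mean of at least 1 FPKM (lower panel) in chromosomal order, 1 point per library. Rhox7 is not shown. Cst12 and Cst9, and Rhox5 and Rhox8, have both Dnmt3L points above both Pld6 points by more than 2 units, while Cst8 and Cst13 are highest in Dnmt3L Het and Rhox13 (48.6 to 81.5 FPKM) does not separate the lines.

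Markers of other cells did not all run with the Sertoli genes. The 7 Leydig genes had medians of 37.6 FPKM in Dnmt3L Het, 28.5 in Dnmt3L KO, 17.6 in Pld6 KO and 1.39 in Pld6 WT (summed FPKM of 331, 333, 237 and 25.9). All 7 were more than 2-fold higher in Pld6 KO than in Pld6 WT and 6 of 7 in Dnmt3L Het than in Pld6 WT, but 1 of 7, Hsd3b1, in Dnmt3L KO than in Pld6 KO, where 10 of 10 Sertoli genes were. Over all genes, 5.46%, 12.9% and 11% were higher in these comparisons. Insl3, the Leydig hormone, was at 202, 198, 142 and 14.7 FPKM. The 5 peritubular muscle genes (Acta2, Tagln, Myh11, Cnn1, Des) had summed FPKM of 599, 317, 586 and 135. All 5 were lower in Dnmt3L KO than in Dnmt3L Het, 3 of 5 by more than 2-fold (9.57% of all genes were). The 5 endothelial genes were highest in Pld6 KO, with summed FPKM of 8.48, 7.17, 27.5 and 9.13. The 7 macrophage genes had medians of 11.3, 18.9, 7.74 and 2.82 FPKM, the same order of libraries as the Sertoli genes. All 7 were above 0 in each comparison, and 3 of 7 were more than 2-fold higher in Dnmt3L Het than in Pld6 WT. The 9 spermatogonial genes had medians of 10.7, 10.8, 19.2 and 14.6 FPKM, without a common order among them. Of the granulosa genes, Foxl2 was at 0 in Pld6 KO and Cyp19a1 in both knockouts. In the other lists no marker was at 0 in a library, apart from the spermatid gene Acrv1 in Pld6 KO. The part of any of these cells in the Sertoli values was not tested.

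**Figure D5:**
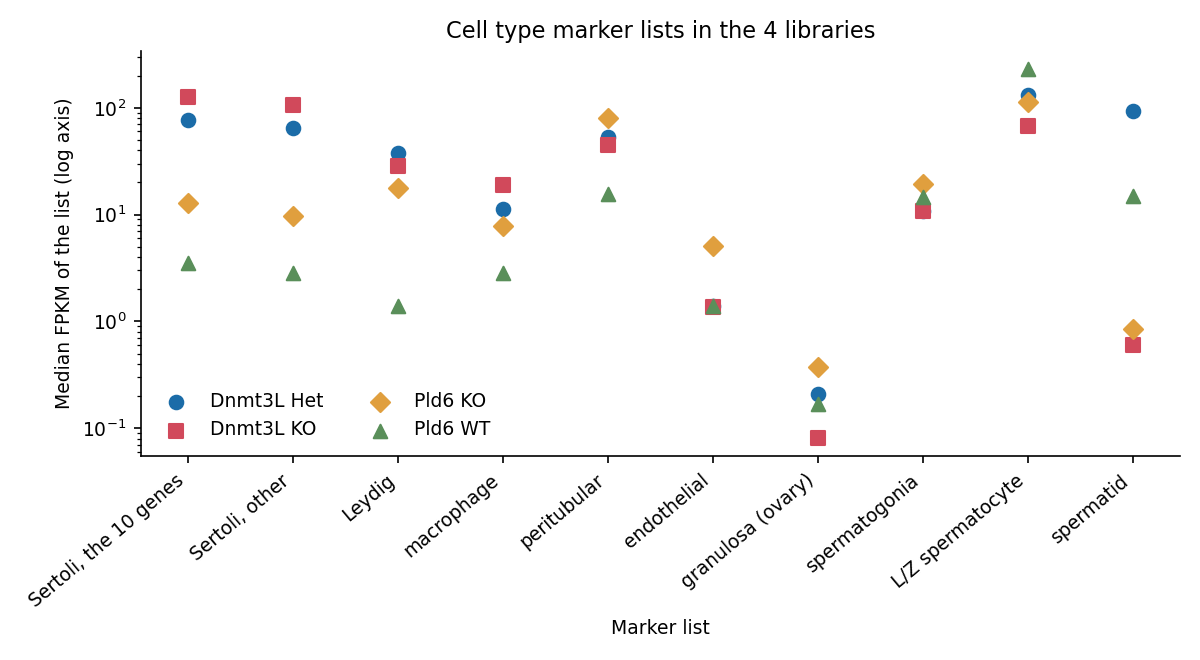
Median FPKM (log axis) of 10 marker lists in the 4 libraries, 1 point per library, where the 10 Sertoli genes are the first list. The Sertoli lists separate the Dnmt3L from the Pld6 libraries, and the macrophage list has the same order over a narrower range (2.82 to 18.9). The Leydig list sets Pld6 WT (1.39) apart from the other 3 (17.6 to 37.6). The spermatid list runs from Dnmt3L Het (93.5) over Pld6 WT (14.8) to both knockouts (0.607 and 0.859).

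The genes most like the Sertoli genes were sought among 10612 genes with a mean of at least 5 FPKM, by the Euclidean distance of centred log2(FPKM + 1) profiles over the 4 libraries. Sept6, a septin gene, was nearest (distance 0.08) at 51.8 FPKM in Dnmt3L Het, 77.0 in Dnmt3L KO, 4.99 in Pld6 KO and 1.91 in Pld6 WT. Capn6 (0.14), Slc52a3 (0.17), Gja1 (0.22), Gatm (0.22), Reep1 (0.26), Glb1l3 (0.26) and Basp1 (0.28) followed. Gja1 encodes connexin 43, the gap junction protein of Sertoli cells, and was at 74.4, 122, 8.72 and 3.41 FPKM. The 10 genes themselves ranked from 23 (Dhh) to 180 (Amh) by this distance from their own mean. Profiles over 4 libraries hold few independent values, and likeness here says no more than that the levels ran together.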

How the data were processed

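PolyA(+) RNA of FACS-purified L/Z spermatocytes from 4 genotypes was sequenced by the authors as stranded single-end reads of 50 bp, aligned with TopHat2 and quantified over RefSeq genes with Cuffdiff (versions not given in the sources used here; build mm10). The deposited table holds an estimated count of fragments per gene, before scaling (97.3% to 97.4% whole numbers), and the authors' FPKM, scaled to length and depth. Totals in genes were 63875934 (Dnmt3L Het), 49932330 (Dnmt3L KO), 30439943 (Pld6 KO) and 40541149 (Pld6 WT), more than the reads per L/Z library that the methods give, for a reason not stated. If fragments are not single reads, counting intervals are too narrow. The strand setting of the counting is not stated. Of all values 31, in 28 genes, are marked as failed by Cuffdiff, none in the 10 genes.

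Single libraries were compared in pairs without a test, since each genotype had 1 library. Differences are log2((FPKM + 1)/(FPKM + 1)), called when more than 2-fold, beside the same share over all genes, and fold intervals are exact 95% binomial (Clopper-Pearson) intervals of the fragments. The edgeR quasi-likelihood fit (edgeR 4.0.16, R 4.3.3, TMM, filterByExpr, Benjamini-Hochberg) used rounded counts in 3 groups, with both controls as 1 group. Its common dispersion was 0.347, and a line term in it would leave 0 residual degrees of freedom. A fit of both knockouts against both controls with line as a term was added after seeing the data. DESeq2 1.42.0, other scalings, pseudocounts and a 3-fold threshold were tried. Scripts used Python 3.11.15 with scipy 1.17.1 and were tested on simulated data. Gene positions and promoter sequences are from RefSeq (GRCm38.p6, the coordinates of mm10).

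The 10 genes and all lists, written from general knowledge, were chosen with earlier results of these data known. Named in the text are the 10 genes, up to 4 genes with the highest mean FPKM of a list (with any gene more than 2-fold apart against its list's median), Rhox and Cst genes with a mean of at least 1 FPKM, and the 8 nearest profiles. Gli1, Insl3, Prm1, Krt18, Foxl2, Sry and a few others that illustrate a list were chosen after their values were seen.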

Additional observations from a re-analysis of the deposited data

Results flagged for a closer look

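Some values pointed in opposite directions in the knockouts of the 2 lines, each against its own control, on the log2(FPKM + 1) scale. With 1 library per genotype these differences between lines were not tested. Amh differed by 0.25 in the Dnmt3L line and by -0.46 in the Pld6 line, the only one of the 10 Sertoli genes with opposite signs. With each library scaled to its L/Z markers, these Amh values were 1.19 and -0.0057. The peritubular list had medians of -1.07 and 1.85 and the endothelial list -0.24 and 1.18 in the Dnmt3L and the Pld6 line. The Leydig list had medians of -0.012 and 2.76, so its sign in the Dnmt3L line rests on a value near 0. In that line 3 of 7 Leydig genes were more than 2-fold higher in the knockout and 0 lower (3.49% and 9.57% of all genes). The granulosa list (-0.11 and 0.0079) and the cystatin genes (-0.092 and 0.00049) had medians near 0 in both, so their opposite signs rest on small values.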

How the results depend on the processing

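Under the 3 other scalings, 120 of 120 differences of the 10 Sertoli genes kept their sign (a pseudocount, threshold or filter cannot turn it). For Amh in Pld6 KO against Pld6 WT the sign rested on a value near 0 with L/Z scaling (-0.0057, against -0.46 at the authors' scaling). Of 240 values at the 2-fold threshold, 20 became more than 2-fold higher, 1 (Amh) more than 2-fold lower and 1 (Fshr in Dnmt3L KO) was no longer past it, and 4 called values did not reach 3-fold. For Dnmt3L KO against Dnmt3L Het, 1 gene was called higher, but 0 with a 3-fold threshold, 0 with counts scaled to depth alone in place of FPKM, and 10 when the libraries were scaled to equal L/Z markers, a scaling that moved the median of all genes by 0.49 and raised the share of all 23980 genes called higher from 3.00% to 29.5%. For Pld6 KO against Pld6 WT, 4 genes were called higher, but 7 with a pseudocount of 0.1 FPKM, 7 and 1 lower (Amh, -1.03) with no pseudocount, 1 with a 3-fold threshold and 8 with L/Z scaling. The share of all genes called higher was 4.69%, against 11.2% with a pseudocount of 0.1 FPKM, 15.1% with none, and 25.4% with L/Z scaling. The comparisons between lines kept 10 of 10 throughout. In the fit with both controls as 1 group, 0 genes passed in edgeR and 1, Amh in Pld6 KO, in DESeq2. Over all genes, edgeR passed 0 in both knockouts, but 429 and 437 without a filter on low counts, and DESeq2 passed 936 and 972 (Dnmt3L KO and Pld6 KO). The cause of these changes was not tested. With the knockouts paired to the controls of their lines (the line as a block, added after seeing the data), 0 of the 10 genes passed edgeR, and 0 without the block. Over all genes the block moved the count that passed from 0 to 1189, and Amh from 0.22 to -0.33. Replicate numbers in the labels pair no libraries. Depth limits Fshr and Amh in the Pld6 libraries, at 24 to 71 fragments.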
